A study of Rattus norvegicus with 9 samples.

Results

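The Y1 RNA 3′ end fragments are a set of overlapping small RNAs, 39 of the 5794 entries in a table of normalised tag counts from rat hippocampus. They were chosen by sequence: each shares an exact run of 16 or more bases, on the same strand, with novel_4748_x984, a 29-nt entry from the 3′ end of Y1 RNA. Small RNA of the CA1 region of male Wistar rats, 7 to 8 weeks old, was sequenced in 9 libraries. There were 3 libraries each of Sham, of tGCI26h and of HPC0h. By its title the study concerns transient Global Cerebral Ischemia, tGCI, and the number in the group's name puts it at 26 h. HPC is spelled out nowhere in the labels, and its number is 0 h. The labels name no other treatment or genotype, and nothing says whether a library is 1 animal, a pool or a repeat of 1 RNA sample, so every spread and p-value here is between these libraries and may be technical. Libraries whose column heading holds 3 numbers are called a, b and c within their group. Sham u and tGCI26h u are those without numbers.

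Y RNAs are short noncoding RNAs transcribed by RNA polymerase III. Their 5′ and 3′ ends pair into a stem, which the Ro60 protein binds, and the La protein binds the run of U at the 3′ end. They are known for roles in RNA quality control and in the start of DNA replication, and in other mammals they are known to be cut into fragments from both ends in stressed and dying cells. CA1 is a field of the hippocampus, and its pyramidal neurons are known to die after global ischemia.

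The sequences are shown because the results turn on where a fragment starts and ends. Position 1 is the first base of the 29-nt entry, and capitals mark positions 25 to 29, where the entries with the highest values end.
novel_4748_x984: cuucucacuacugcacuugacuagUCUUC
novel_7021_x563: uucucacuacugcacuugacuagUCUUC
novel_1844_x3853: cuucucacuacugcacuugacuagUCU
novel_894_x12027: cuucucacuacugcacuugacuagUC
novel_227_x81167: cuucucacuacugcacuugacuagU
novel_123_x207732: cuucucacuacugcacuugacuag

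The longest entry, of 38 nt, is shown with capitals for the 14 bases that lie before position 1.
novel_14014_x219: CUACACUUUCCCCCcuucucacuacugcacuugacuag

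All 39 could be placed on 1 stretch of 43 bases without a base conflict, apart from 2 entries that begin with an undetermined base, N. None carries the rno_piR name of a catalogued piRNA, and none of 1143 RefSeq microRNA sequences of the GRCr8 build holds a run of 16 bases of the 29-nt entry. The tables used here hold no Y RNA sequence, so the name Y1 rests on knowledge of that RNA and was not matched to a reference. The last base of the 29-nt and 28-nt entries is C and not the U that ends a Y RNA, and whether the Y1 gene holds that C was not analysed here. Lengths ran from 20 to 38 nt. The first base was U in 14 of the 39 (35.9%, against 45.4% of all entries), and position 10 was A in 10 (25.6%, against 26.8%), so neither feature by which piRNAs are often described was more frequent among them than in the table. These counts weigh all entries alike, whatever their values. The 29-nt entry has A at its position 10, and the 28-nt entry begins with U. No entry shared 16 bases with the opposite strand, where the longest run was 10 bases.

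Starts and ends were unevenly spread. Of the 39 entries, 20 started before position 1, 10 at position 1, 8 at position 2 and 1 at position 3. Ends fell on position 24 in 14 entries, on 25 in 9, on 22 in 5 and on 23 in 3. Only 2 entries each ended at 26, 27 and 29, 1 each at 20 and 21, and none of the listed entries ended at 28. All 20 entries with upstream bases ended between positions 22 and 25, and none of the 5794 entries contained the whole 29-nt sequence.

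Of the entries just inside the rule, novel_937_x11080 shared 20 bases and held at most 1 tag in any library, and novel_258_x69397 shared 21 and held at most 2. Just outside it lay 3 entries that share 15 or 14 bases with the 29-nt sequence. They are copies of its 24-nt or 23-nt pieces with base changes, counted from position 1. novel_7882_x479 carries C16U and held 0 to 3 tags, novel_13528_x228 carries A15U and C16U and held 0 to 4 tags, and novel_12501_x255 carries C16U and was at 0 in all 9 libraries. The next longest shared run was 9 bases.

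The values are nested. Across the table there are 23774 pairs in which one entry's sequence contains another's, and in 0 of them did the contained entry exceed its container in any library. Among the Y1 entries this held for all 401 such pairs, and 55 of them had identical values in all 9 libraries. The 39 entries thus had 23 distinct sets of 9 values. The sources used here do not say how tags were assigned to overlapping entries, so the members cannot be added up as separate molecules, and the result for a short fragment is part of the results for the longer ones around it. Differences between a container and the entry it contains are called steps here.

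The libraries without numbers stood apart in the table as a whole. The 9 library totals, 961372 to 992081, reflect the scaling and not depth, which is unknown. Entries above 0 numbered 2558 to 2936 in the libraries a, b and c, 1201 in Sham u and 708 in tGCI26h u. Of the 39 members, 8 were blank in Sham u and 5 in tGCI26h u. What part this difference between libraries has in the Y1 values was not tested. The table holds small RNA only, so the tissue label was not checked against cell markers.

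The 29-nt entry novel_4748_x984 held the highest value of any member in every library. By the nesting, the 16 members that lie inside it could not exceed it. The numbers after the x in entry names do not follow the values, being lower in novel_4748_x984 than in novel_123_x207732. What those numbers count was not analysed here. The Sham libraries a, b and u held 2547, 2972 and 1331 tags of the 29-nt entry. The tGCI26h libraries a, b and u held 2367, 3680 and 9957, and the HPC0h libraries a, b and c held 2658, 3795 and 2112. Values of other entries are given in this order of libraries. The 3 groups overlapped, with the highest and the lowest value both in libraries without numbers. It ranked first among the 699 entries of 27 to 29 nt in all 9 libraries, and between the 19th (tGCI26h u) and the 92nd (Sham u) of all entries. Among the 7 numbered libraries its highest value was 1.80 times its lowest. In tissue RNA, fewer cells of a type and less RNA per cell cannot be told apart.

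**Figure D1:**
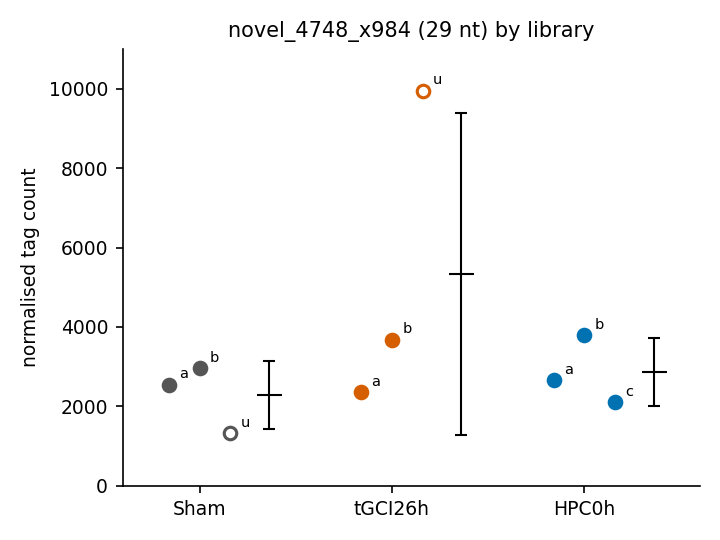
Normalised tag count of the 29-nt entry novel_4748_x984 (vertical axis) in the 9 libraries by group. Each point is 1 library with its letter, open points are the libraries without numbers in their heading, and the bar beside each group is the mean ± SD of 3. The tGCI26h mean is lifted by library u at 9957, while the 7 filled points lie between 2112 and 3795.

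The 28-nt entry novel_7021_x563, which lacks only the first base, had the second highest values, with 527, 621 and 383 tags in Sham. Its tGCI26h values were 486, 828 and 3427, and its HPC0h values 570, 778 and 475. Its order among the libraries of each group was that of the 29-nt entry. As a share of the 29-nt value in the same library it lay between 20.5% and 22.5% in the 7 numbered libraries, at 28.8% in Sham u and at 34.4% in tGCI26h u. A ratio within a library does not depend on how libraries were scaled. The groups overlapped in this share, whose mean was 23.5% ± 4.61 for Sham, 25.8% ± 7.51 for tGCI26h and 21.5% ± 0.995 for HPC0h (SD over 3 libraries each).

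The value climbed with the position of the 3′ end. The nesting of the values fixes that direction, so only the size of each step is a result. Amplicons near piRNA length were selected, and what part this has in the steps was not tested. Entries that start at position 1 held, in the numbered libraries, 0 or 1 tag with an end at position 20, 1 or 2 with an end at 21 and 15 to 21 with an end at 22. Among entries that start at position 1, the 22-nt entry novel_282_x62412 held 17, 21 and 23 tags in Sham, 15, 15 and 126 in tGCI26h, and 18, 20 and 20 in HPC0h. The 24-nt entry novel_123_x207732 held 23, 29 and 23 in Sham, 20, 23 and 272 in tGCI26h and 27, 30 and 27 in HPC0h. Both lay between 15 and 30 tags everywhere except in tGCI26h u.

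One more base, the U at position 25, raised the value to 98, 119 and 76 tags in Sham for the 25-nt entry novel_227_x81167, to 87, 110 and 417 in tGCI26h and to 97, 110 and 90 in HPC0h. Its values were also those of novel_13029_x241 and novel_5395_x819, which carry 2 and 1 upstream bases. The 26-nt entry novel_894_x12027 held 251, 288 and 193 in Sham, 239, 310 and 1125 in tGCI26h and 251, 334 and 242 in HPC0h. The 27-nt entry novel_1844_x3853 held 407, 470 and 328 in Sham, 398, 579 and 1125 in tGCI26h and 451, 639 and 429 in HPC0h. The step from position 24 to 25 thus exceeded the 24-nt value itself in 8 libraries, tGCI26h u being the exception at 272 and 417.

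The last step was the largest in every library in tags. The 2 bases after position 27 accounted for 83.1% ± 1.58 of the 29-nt value over the numbered libraries (SD, n = 7), and for 75.4% in Sham u and 88.7% in tGCI26h u. The 27-nt entry held the rest, at 18.8% ± 5.05 in Sham and 14.6% ± 2.92 in tGCI26h (SD over 3 libraries), and at 16.8% to 20.3% in the HPC0h libraries. The ranges overlapped, since the highest share, 24.6%, was in Sham u and the lowest, 11.3%, in tGCI26h u, and the numbered libraries lay between 15.7% and 20.3%. The 25-nt entry made up 2.90% to 4.26% of the 29-nt value in the numbered libraries, 5.71% in Sham u and 4.19% in tGCI26h u.

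**Figure D2:**
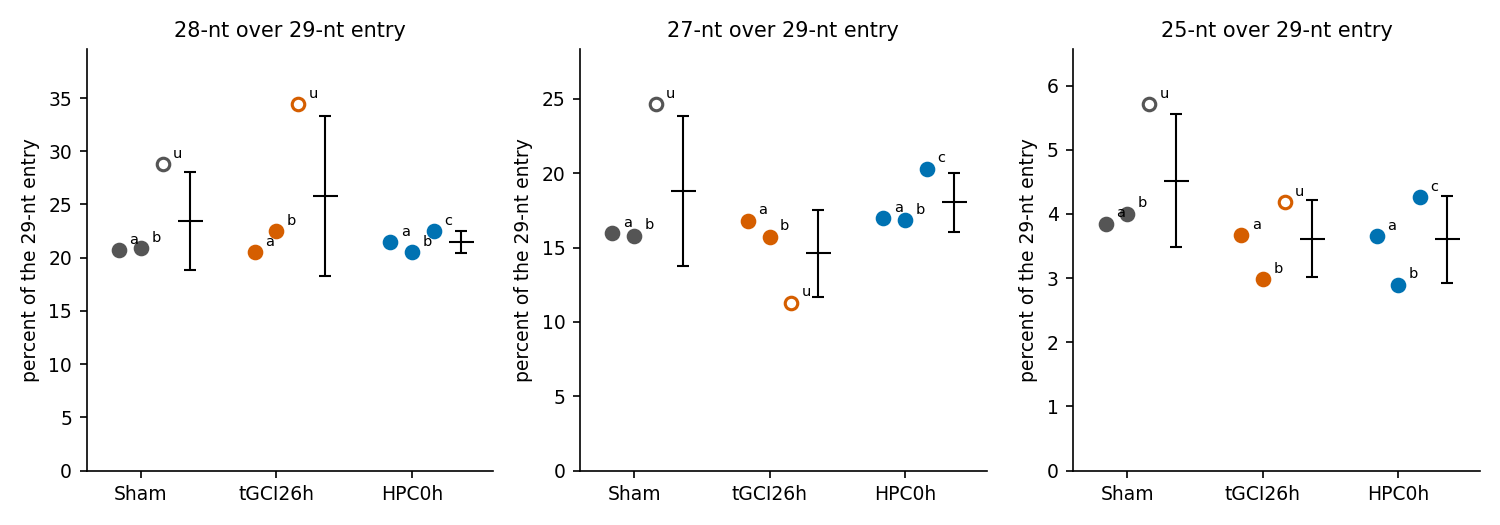
Values of the 28-nt, 27-nt and 25-nt entries as a percent of the 29-nt entry of the same library (vertical axes), by group. Points, letters and bars are as in the plot of the 29-nt entry: 1 library each, open for those without numbers, and the mean ± SD of 3. The 7 numbered libraries lie between 20.5% and 22.5% on the left and between 15.7% and 20.3% in the middle.

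**Figure D3:**
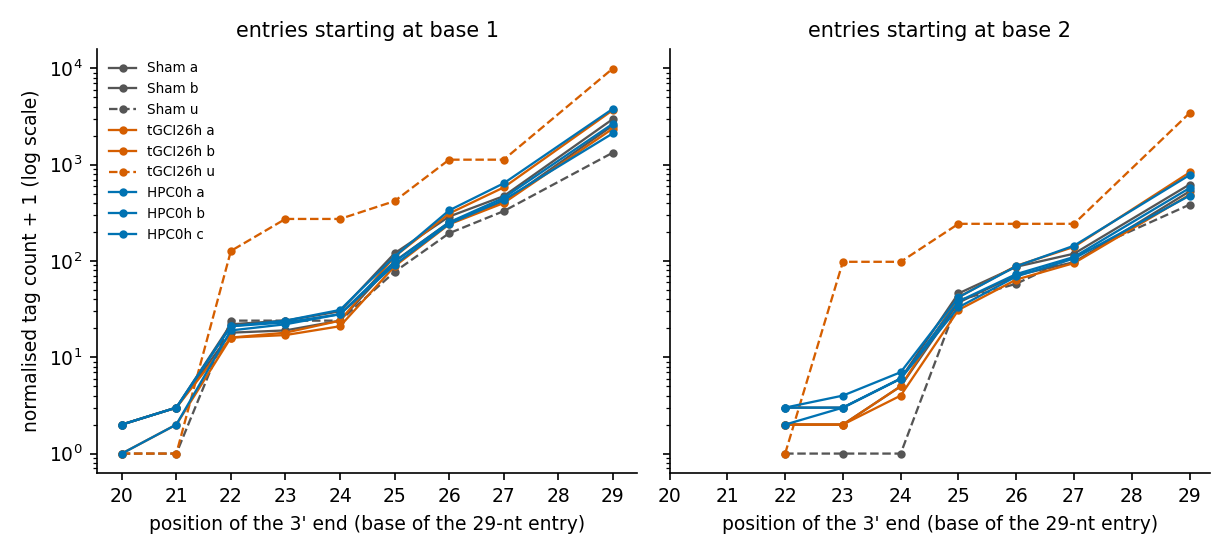
Normalised tag count plus 1 on a log scale (vertical axis) against the position of the 3′ end on the 29-nt entry (horizontal axis), for entries starting at position 1 (left) and position 2 (right). Each line is 1 library, coloured by group, and dashed lines are Sham u and tGCI26h u. The 7 solid lines run together, stay nearly flat on the left from position 22 to 24, and rise before and after that stretch, while tGCI26h u lies above them from position 22 on the left and 23 on the right.

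Entries that start at position 2 followed the same ends at a lower level. By the nesting they could not exceed the matching position 1 entry, but their share of it depended on the end. Over the numbered libraries the share was 7.76% ± 2.00 for an end at 22, 8.29% ± 2.66 at 23, 17.7% ± 1.54 at 24 and 36.8% ± 1.30 at 25 (SD, n = 7 each). It was lower again at the later ends, with 27.9% ± 1.33 at 26, 23.9% ± 0.853 at 27 and 21.3% ± 0.880 at 29. At ends 22 and 23 the shares rest on 1 to 3 tags of the shorter entry, and at end 24 on 3 to 6. The share at 25, 34.5% to 38.1%, was above that of every numbered library at 24 (at most 20%) and at 26 (at most 29.9%). For ends 25, 27 and 29 the shares were 50.0%, 33.5% and 28.8% in Sham u and 58.0%, 21.5% and 34.4% in tGCI26h u, so that end 25 had the highest share of these 3 in both. The pattern of starts thus differed between the ends, with values that share the tags of the shorter entries, and no test was made over entries chosen with earlier results known.

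Tags that begin upstream were scarce outside 1 library. In Sham u, the 4 entries of 32 to 35 nt that end at position 25 (novel_7453_x518, novel_7961_x471, novel_7084_x554 and novel_14747_x203) held 146, 162, 172 and 172 tags, against 76 in the 25-nt entry inside them. The 38-nt entry novel_14014_x219 held 91 there, against 23 in the 24-nt entry novel_123_x207732. In the other 8 libraries the 20 entries with upstream bases exceeded the position 1 entry of the same end by 0 to 3 tags. At the end on position 24, 11 entries of 24 to 38 nt held 1 set of values in the numbered libraries, 23 and 29 in Sham, 20 and 23 in tGCI26h and 27, 30 and 27 in HPC0h, whatever their number of upstream bases. A value listed for a long entry in the numbered libraries is therefore almost wholly that of the short entry it contains.

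**Figure D4:**
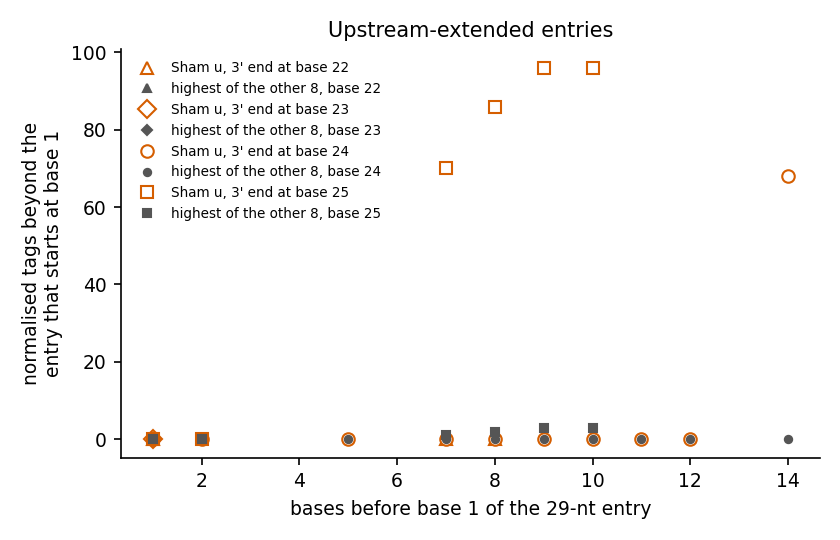
Normalised tags that each of the 20 upstream-extended entries held beyond the entry that starts at position 1 and has the same end (vertical axis), against the number of bases before position 1 (horizontal axis). Open orange symbols are Sham u and filled grey symbols the highest of the other 8 libraries, with a symbol shape for each end position. The Sham u points reach 96, in entries with 7 or more upstream bases, and the grey points stay between 0 and 3.

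Setting tGCI26h against Sham addresses whether these fragments differ at the labelled 26 h after ischemia. The mean of the 29-nt entry was 2283 ± 852 tags for Sham and 5335 ± 4057 for tGCI26h (SD over 3 libraries each). On the log2(value + 1) scale the difference was 1.03 ± 0.71 (SE). It missed the threshold in limma (adjusted p = 0.781 over the 2824 entries that averaged 1 tag or more), and the exact two-sided permutation p was 0.3, where 3 against 3 libraries allow no less than 0.1. In the numbered libraries the difference was 0.10 ± 0.35 (SE, limma adjusted p = 0.964, 2 libraries each), and without tGCI26h u alone it was 0.45. The libraries without numbers, compared with each other, held 1331 tags in Sham u and 9957 in tGCI26h u.

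Of the 36 members tested, 0 passed at a limma adjusted p below 0.05 in either direction, where 0% of all 2824 entries passed, and 0 reached an unadjusted p under 0.05, as 39 entries (1.38%) of the whole table did. The member with the smallest p was the 23-nt entry novel_195_x98216, with 4, 5 and 0 tags in Sham and 3, 4 and 97 in tGCI26h. Its log2 difference of 2.01 ± 1.30 (SE, limma adjusted p = 0.781) turned to -0.29 in the numbered libraries. The median log2 difference of the 36 was 0.80, with 34 above 0, and the members' values are not independent of each other. Over all entries tested the median was 0.14, with 55.3% above 0. In the numbered libraries the members' median was -0.26, with 5 above 0, so it changed sign without Sham u and tGCI26h u. All entries had a median of 0.21 there, with 62.0% above 0. With median-of-ratios scaling of the 9 libraries the members' median was 0.32 with 28 above 0 (0.07 over all entries, 52.6% above 0). With quantile normalisation it was 0.18 with 31 above 0 (0.06 over all entries, 53.2% above 0).

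As normalised by the authors, HPC0h against Sham gave smaller differences than tGCI26h against Sham, for the 29-nt entry and the members' median. The 29-nt entry held 2855 ± 859 tags in HPC0h (SD, n = 3), a log2 difference from Sham of 0.36 ± 0.71 (SE, limma adjusted p = 0.904; exact permutation p = 0.5). Without Sham u the difference was 0.01. None of the 36 members passed (0% of all entries passed), and 0 were among the 21 entries (0.744%) with an unadjusted p under 0.05. Their median log2 difference of 0.16 lay below the 0.53 of all entries tested. HPC0h holds only numbered libraries, so library type is not balanced in either comparison with HPC0h, for members or for all entries. The smallest p was that of novel_7935_x473, a 24-nt entry whose first base is N, whose Sham values were 5, 6 and 0 tags and whose HPC0h values were 6, 7 and 6 (log2 1.07 ± 1.33 SE, limma adjusted p = 0.822). In the numbered libraries the members' median was 0.10, beside 0.21 over all entries. With median-of-ratios scaling it was 0.44, beside 0.63, and with quantile normalisation 0.29, beside 0.05.

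HPC0h against tGCI26h compares the 2 groups other than Sham directly. The 29-nt entry differed by -0.67 ± 0.71 in log2 (SE, limma adjusted p = 0.722; exact permutation p = 0.5), by -0.09 without tGCI26h u, and by 0.11 with a median-of-ratios scaling, where the direction turned. Again 0 of 36 members passed (0% of all entries passed), and 0 were among the 8 (0.283%) with an unadjusted p under 0.05. The smallest p was that of the 21-nt entry novel_411_x35059, which held 1, 1 and 0 tags in tGCI26h and 1, 2 and 2 in HPC0h (log2 0.72 ± 0.75 SE, limma adjusted p = 0.722). Of the 36, 34 were below 0, with a median of -0.74, beside 0.72 over all entries tested, of which 72.1% were above 0. The counts changed with the setting. In the numbered libraries 31 members were above 0, with a median of 0.34, where 54.1% of all entries were above 0. With median-of-ratios scaling 19 members were above 0, with a median of 0.05, beside 0.78 over all entries (76.1% above 0). With quantile normalisation 21 members were below 0, with a median of -0.04, beside 0.07 over all entries (54.7% above 0). Under both scalings the members' median thus stayed below that of all entries.

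The same comparison in the numbered libraries gave a pattern by end position. There 20 of the 36 members, all ending between positions 22 and 24, were higher in every HPC0h library than in tGCI26h a and b, a separation found in 8.9% of the 2608 entries tested. These 20 had only 6 distinct sets of values, since 17 of them hold the values of the 22-nt, 23-nt or 24-nt entry that starts at position 1. For the 24-nt entry novel_123_x207732 the values were 20 and 23 in tGCI26h against 27, 30 and 27 in HPC0h, a log2 difference of 0.37 ± 0.14 (SE, limma adjusted p = 0.695). For the 22-nt entry novel_282_x62412 they were 15 and 15 against 18, 20 and 20, a difference of 0.34 ± 0.12 (SE, limma adjusted p = 0.695). For these 2 entries the libraries differ by 3 to 10 tags. The unadjusted limma p of the 20 ran from 0.00614 to 0.0445, in a fit where 5.29% of entries were higher at an unadjusted p under 0.05.

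None of the 36 passed the adjusted threshold there (lowest adjusted p = 0.408), where 0.345% of entries passed higher and 0.115% lower. tGCI26h u went the other way, at 126 and 272 tags for the same 22-nt and 24-nt entries, above every HPC0h library. In tGCI26h against Sham, 7 of the same 20 members lay lower in both numbered tGCI26h libraries than in Sham a and b, against 7.71% of all entries. They had 3 distinct sets of values. On the higher side 0 members were separated, against 27.8% of all entries. None passed in limma (lowest adjusted p = 0.322, where 0.498% of entries passed higher and 0.345% lower). In HPC0h against Sham no member was separated in either direction in the numbered libraries, where 18% of all entries were separated higher and 4.03% lower, and none passed (0.882% of entries passed higher and 0.498% lower). Entries ending at 25 or later lay within 0.10 of 0 in log2 between HPC0h and tGCI26h in the numbered libraries.

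**Figure D5:**
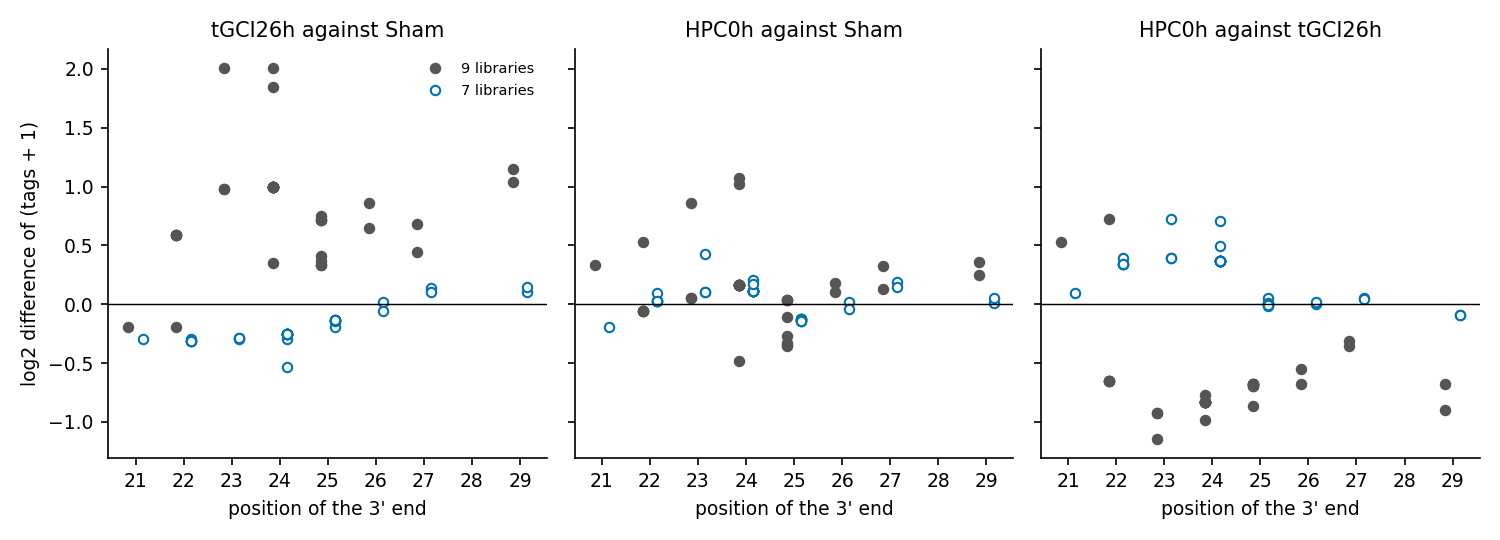
Log2 difference of normalised tags plus 1 (vertical axis) for the 36 tested members against the position of their 3′ end (horizontal axis), in the 3 comparisons. Filled grey points use all 9 libraries and open blue points the 7 numbered ones, and members with the same values lie on each other. In HPC0h against tGCI26h the blue points of ends 22 to 24 lie above 0 and those of later ends lie within 0.10 of it, while nearly all grey points lie below 0.

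Summed over the 39 members, which counts contained entries again, the fragments held 0.504%, 0.595% and 0.393% of the library total in Sham, 0.466%, 0.686% and 2.40% in tGCI26h, and 0.531%, 0.714% and 0.458% in HPC0h. The tGCI26h u share stood alone, and the other 8 overlapped between the groups. The mean log2 share differed by 0.90 between tGCI26h and Sham, by 0.19 between HPC0h and Sham and by -0.71 between HPC0h and tGCI26h. In the numbered libraries these were 0.05, 0.03 and -0.02. Without tGCI26h u alone the first was 0.21, and without HPC0h b alone the second was 0.0077.

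Set beside fragments of other RNAs, gathered by the same 16-base rule, the Y1 entries spread over 13 start and 9 end positions. The 58 entries around novel_14648_x205, a 3′ part of 5S rRNA, spread over 25 starts and 7 ends, and the 41 around novel_3169_x1751, a 5′ end of glycine tRNA, over 7 starts and 21 ends. These positions are of all listed entries, also those at 0 in every library. Above 0 in some library were 37 of the 39 Y1, 37 of the 58 5S rRNA and 31 of the 41 glycine tRNA entries. In the numbered libraries the highest value of novel_14648_x205 was 6.16 times its lowest, and that of novel_3169_x1751 was 1.98 times, beside 1.80 for novel_4748_x984. Sham u held 0.482 times the mean of Sham a and b for novel_4748_x984, but 12.2 times for novel_14648_x205 and 3.01 times for novel_3169_x1751. In tGCI26h u the factors over tGCI26h a and b were 3.29, 8.69 and 1.55 in the same order. These differences between families were not tested.

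The entries whose pattern over the 9 libraries was most like that of novel_4748_x984, by Pearson's r of log2(value + 1) among 1303 other entries with a mean of at least 10 tags, were novel_8090_x461 (r = 0.971), novel_12319_x260 (0.970), rno_piR_000562 (0.969), novel_4628_x1018 (0.961) and novel_3699_x1388 (0.958). novel_8090_x461 held 12, 7 and 0 tags in Sham, 7, 12 and 404 in tGCI26h and 12, 15 and 4 in HPC0h. The catalogued rno_piR_000562 held 119, 103 and 48 in Sham, 90, 131 and 429 in tGCI26h and 93, 109 and 88 in HPC0h. All 5 were highest in tGCI26h u and lowest in Sham u, and over the 7 numbered libraries r was 0.652 to 0.739. The r values are a description of 9 points that share these libraries and their scaling, and novel_12319_x260 lies inside novel_8090_x461 and novel_4628_x1018 inside novel_3699_x1388.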

How the data were processed

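The deposited values are a score, namely tag counts normalised by the authors (per the file headers) to near-equal column totals and given as whole numbers. Per the submitters' processing notes, cutadapt 1.9.3 and Novoalign 3.02.12 were used. The genome build and the assignment of overlapping tags are not given in the sources used here. Per the labels' protocols, adaptors were ligated to Trizol-extracted total RNA and amplicons near piRNA length were selected. Columns were tied to groups by their headings; the headings of the HPC0h columns hold only the letter P of that label. Blanks were read as 0, and 11 lines emptied beforehand are not reported here.

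Values were tested as log2(value + 1) with limma 3.58.1 in R 4.3.3, with an intensity trend, the 3 groups in 1 fit, a mean of at least 1 and Benjamini-Hochberg adjustment over all entries at 0.05, after a check on simulated data. The simulated libraries had the same spread, with no counterpart of Sham u and tGCI26h u. That check therefore does not measure the power of the fit in these data. Members, lists and tests were chosen with earlier results of these data known. Named entries are the 29-nt entry, the 10 members with the highest mean, the shortest and longest above 0, the smallest p in each comparison, the 5 most alike non-members and 2 lead entries of other families. novel_123_x207732, novel_282_x62412 and novel_258_x69397 lie outside this rule and, like the entries just outside the membership rule, were named after their values were seen. Depth is unknown, so no counting interval is given.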

Additional observations from a re-analysis of the deposited data

How the results depend on the processing

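No member passed in any of the 3 comparisons under any of 21 alternatives to the limma fit (pseudocount, filter, scaling, trend, robust form, groups in the fit, each library left out, the 7 numbered libraries, blanks as missing, and library type as a covariate, the last chosen after seeing the data). Over all entries, 0% passed in the main fit, and 0.115% to 0.882% per direction in the 7 numbered libraries. The share of all entries passing under the other alternatives is not given here. Without it, the lack of passing members there cannot be read as particular to them. For the 29-nt entry, the log2 difference between HPC0h and tGCI26h turned to 0.11 with median-of-ratios scaling, whose factor for tGCI26h u was 5.02, and that of novel_195_x98216 between tGCI26h and Sham turned to -0.29 in the 7 numbered libraries. The cause was not tested. With each library left out, the 29-nt difference ran from 0.45 (without tGCI26h u) to 1.49 (without tGCI26h a) in tGCI26h against Sham, from 0.01 (without Sham u) to 0.59 (without Sham b) in HPC0h against Sham, and from -1.13 (without tGCI26h a) to -0.09 (without tGCI26h u) in HPC0h against tGCI26h. Runs of 18 bases chose the same 39 members and runs of 14 chose 42. The log2 difference in summed share has an SD between libraries (0.90 in tGCI26h against Sham) as large as itself. With each library left out it ran from 0.21 (without tGCI26h u) to 1.39 (without tGCI26h a) there, from 0.0077 (without HPC0h b) to 0.33 (without HPC0h c) in HPC0h against Sham, and from -1.20 (without tGCI26h a) to -0.02 (without tGCI26h u) in HPC0h against tGCI26h. With the summed tags divided by the median-of-ratios factor in place of the library total, the difference between HPC0h and tGCI26h turned to 0.07. An alternative chosen after seeing the data left out repeat counting of contained entries. It used normalised tags not divided by the library total, and its log2 differences were 0.98, 0.30 and -0.68 in the 3 comparisons.
No paired analysis was possible because the columns carry no replicate number of the labels. Depth is not stated, so what it limits could not be given.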
